A study of Mus musculus with 3 samples.

Results

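The 10 genes described here encode the NF-kB subunits and the IkB proteins that hold or steer them. They are defined by their symbols, and no measured value enters the definition. The subunits are Rela, Relb, Rel, Nfkb1 and Nfkb2, the cytoplasmic inhibitors are Nfkbia, Nfkbib and Nfkbie, and the nuclear IkB proteins are Nfkbiz and Bcl3. All 10 were found among the 55536 genes of the deposited gene tables. Polyadenylated RNA was sequenced in 3 libraries of primary macrophages, derived from bone marrow of the laboratory mouse strain C57BL/6J. Every library carries the same treatment label, lipid A at 100 ng/ml for 0 minutes, so the values are the starting levels of a stimulation and there is no other group to compare with. Toll-like receptor 4 recognises bacterial lipopolysaccharide through its lipid A. The labels number the libraries as biological replicates 1, 2 and 3 and give all of them the same donor record. Separate animals are not stated, and part of the spread among libraries may therefore be technical. Age and sex of the mice are labelled as not collected.

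NF-kB is a family of transcription factors that work as dimers. In resting cells IkB proteins bind the dimers and keep them out of the nucleus. Signals such as lipopolysaccharide activate the IKK complex, which marks the IkB proteins for destruction and frees dimers of RelA, c-Rel and p50. In the slower non-canonical route the precursor p100, the product of Nfkb2, is cut to p52, which pairs with RelB. Macrophages use both routes to switch on cytokines, chemokines and their own inhibitors.

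In build mm10 the subunit genes lie on separate chromosomes, except that Rela and Nfkb2 share chromosome 19. They are Rela at chr19:5637483-5648130 (plus strand), Relb at chr7:19606217-19629438 (minus strand), Rel at chr11:23736847-23770970 (minus strand), Nfkb1 at chr3:135584655-135691547 (minus strand) and Nfkb2 at chr19:46304320-46312385 (plus strand). The inhibitor genes are Nfkbia at chr12:55489410-55492647 (minus strand), Nfkbib at chr7:28758251-28767512 (minus strand) and Nfkbie at chr17:45555703-45563169 (plus strand). The nuclear IkB genes are Nfkbiz at chr16:55811375-55838899 (minus strand) and Bcl3 at chr7:19808462-19822770 (minus strand). Relb, Nfkbib and Bcl3 are all on chromosome 7. The genes have 56 annotated transcripts between them, of which 5 were at 0 in every library of both transcript tables.

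All 10 genes were expressed before stimulation. Each reached at least 1 TPM (a transcript's level after division by its length, scaled to the same sum in each library) in every library, as did 44.8% of the protein-coding genes in the tables. Their counts made up 0.0322%, 0.0511% and 0.0350% of all expected counts in replicates 1, 2 and 3, which held 27946070, 29779410 and 53447437 counts. The smallest count of any of the genes was 198, for Nfkbiz in replicate 1. Its 95% counting interval ran from 171 to 228, which covers counting error only.

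Among the subunits, Rela stood at 40.3, 53.1 and 191 TPM in replicates 1, 2 and 3, a mean of 94.6 ± 83.3 TPM (SD, n = 3). Rela encodes p65, the main activating subunit of the canonical route. Replicate 3 lay far above the other libraries, and its excess was in short transcripts, as described further on. Nfkb1, which encodes p105 and its product p50, the usual partner of p65, stood at 52.6, 64.0 and 37.1 TPM (mean 51.3 ± 13.5 SD, n = 3). By these values it was highest in replicate 2 and lowest in replicate 3. In the kallisto-format values replicate 1 was lowest instead, with 34.2, 42.5 and 36.5 TPM in replicates 1, 2 and 3. Nfkb2, the gene of p100 and p52, gave 25.4, 41.7 and 15.3 TPM (mean 27.5 ± 13.3 SD, n = 3). Relb, the p52 partner, gave 12.1, 25.2 and 7.84 TPM (mean 15.04 ± 9.05 SD, n = 3). Both genes of the non-canonical pair thus had the same order of libraries, with replicate 2 highest and replicate 3 lowest. Rel, which encodes c-Rel, had 7.14, 12.9 and 8.84 TPM (mean 9.64 ± 2.99 SD, n = 3) and was the lowest subunit by mean.

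Among the cytoplasmic inhibitors, Nfkbia was the highest by mean. It encodes IkB-alpha, the inhibitor that NF-kB itself induces most quickly. Its level was 50.6, 78.5 and 23.1 TPM (mean 50.7 ± 27.7 SD, n = 3), so that replicates 2 and 3 marked the ends of its range. Nfkbib, the gene of IkB-beta, had 23.2, 34.6 and 26.4 TPM (mean 28.04 ± 5.91 SD, n = 3), and its libraries lay close together. Nfkbie, the gene of IkB-epsilon, was lower at 7.69, 9.54 and 3.85 TPM (mean 7.03 ± 2.90 SD, n = 3). The order within the inhibitors was not the same everywhere: Nfkbib passed Nfkbia in replicate 3, where the ratio of Nfkbia to Nfkbib was 0.878 against 2.19 and 2.27 in replicates 1 and 2.

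The nuclear IkB genes differed in level. Nfkbiz, the gene of IkB-zeta, which works in the nucleus on secondary inflammatory genes, had 3.24, 9.09 and 2.53 TPM (mean 4.95 ± 3.6 SD, n = 3). It was the lowest of the 10 genes in every library, and replicate 2 alone stood above the other libraries. Bcl3, a nuclear partner of p50 and p52 dimers, had 8.74, 26.2 and 16.0 TPM (mean 17.0 ± 8.75 SD, n = 3), with the 3 libraries well spaced.

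By mean TPM the order was Rela, Nfkb1, Nfkbia, Nfkbib, Nfkb2, Bcl3, Relb, Rel, Nfkbie and Nfkbiz. Of the 9 neighbours in this order, only Nfkbie and Nfkbiz kept their order in all 3 libraries, and the ranges overlapped in every neighbouring pair. In the kallisto-format values Nfkbie and Nfkbiz kept it in 2 libraries. Over all 45 pairs of genes, 36 kept their order in every library and 21 had ranges that did not overlap. The first place changed hands, being held by Nfkb1 in replicate 1, Nfkbia in replicate 2 and Rela in replicate 3. The order is therefore firm between the top and the bottom of the list and not between neighbours.

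**Figure D1:**
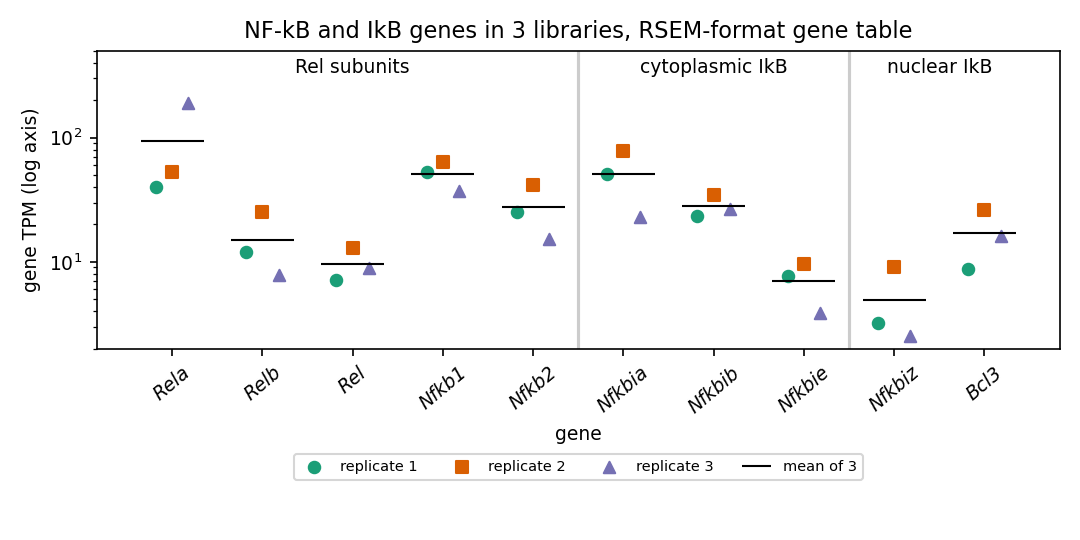
Gene TPM of the 10 genes (log axis) in the 3 libraries, one symbol for each library and a bar for the mean. Replicate 2 gives the highest symbol for 9 genes, and Rela, at 191 TPM in replicate 3, is the exception.

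Levels were then set on a scale that allows for library composition, in TMM-scaled CPM. CPM are counts relative to the total of the library, and TMM, the trimmed mean of M values, corrects that total. On this scale 9 of the 10 genes were highest in replicate 2, against 32.3% of the 11886 genes scaled. The exception was Rela, with 52.2, 72.7 and 116 scaled CPM. The lowest library was replicate 1 for 5 genes and replicate 3 for the other 5. The median of the 10 genes in replicate 2, as a log2 ratio to the other libraries (their geometric mean), was 0.76, where that of all scaled genes was 0.00. In replicates 1 and 3 the same median was -0.42 and -0.40, against 0.00 and 0.01 for all scaled genes. No test was made, since the libraries are replicates of a single group. In RNA from a whole culture, fewer cells that express a gene and less of its RNA per cell cannot be told apart.

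The size of the difference varied from gene to gene. Nfkbiz stood furthest above in replicate 2, at a log2 ratio of 1.48, with 6.88, 19.1 and 6.81 scaled CPM. Relb followed at 1.31, with 14.5, 30.4 and 10.5. Nfkbia came next at 1.03, with 42.1, 65.3 and 24.3. Nfkbiz and Relb had replicate 2 over 2-fold above both other libraries. For Nfkbia it was 1.55-fold above replicate 1 and 2.69-fold above replicate 3. Bcl3 reached 0.93, but with 8.09, 24.1 and 19.7 scaled CPM it was nearly as high in replicate 3. Nfkb2 was at 0.88, with 45.7, 74.3 and 35.9, and Nfkbie at 0.64, with 10.8, 13.3 and 6.70. Rel, Nfkb1 and Nfkbib were the lowest of the 9, with log2 ratios of 0.53, 0.32 and 0.29. Rel had 32.9, 58.9 and 50.8 scaled CPM, so that replicate 1 was the library apart. Nfkb1 had 83.8, 108 and 88.7, and Nfkbib had 14.8, 21.6 and 21.2, with replicates 2 and 3 nearly level.

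The 3 libraries were over 2-fold apart, lowest to highest, for 6 of the 10 genes (Rela, Relb, Nfkb2, Nfkbia, Nfkbiz and Bcl3) on the scaled counts. Of all scaled genes 36.9% were that far apart. Bcl3 had the widest range, 2.98-fold, and Nfkb1 the narrowest, 1.29-fold. Without replicate 2 the count of genes over 2-fold apart was 2, without replicate 3 it was 3, and without replicate 1 it was 4.

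**Figure D2:**
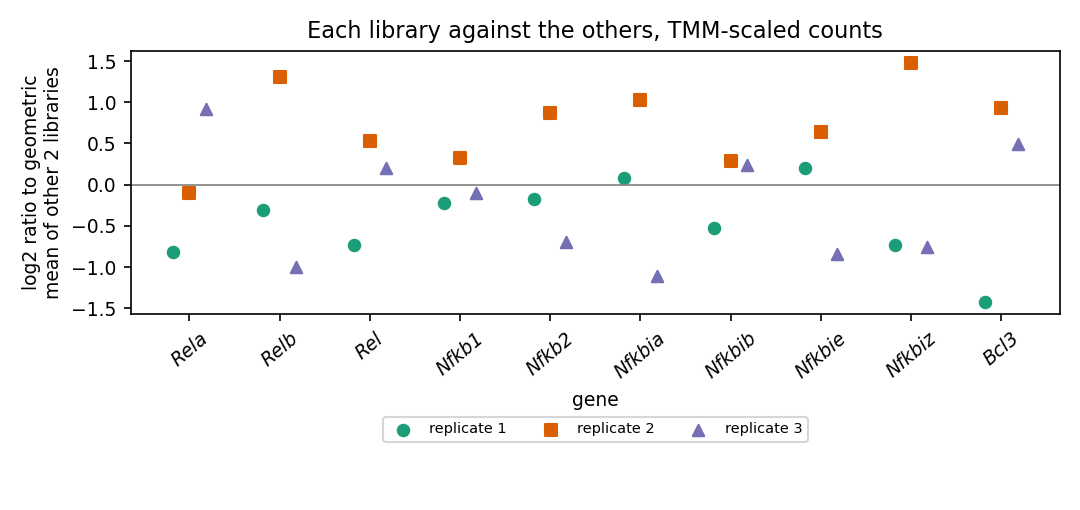
Log2 ratio of each library to the geometric mean of the other 2, on TMM-scaled counts, for the 10 genes. Replicate 2 lies above 0 for every gene but Rela, from 0.29 for Nfkbib to 1.48 for Nfkbiz.

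Interferon-stimulated genes were highest in the same library. All 16 of a list of them were at their peak in replicate 2, with a median log2 ratio of 1.70, and their summed level was 2030, 5102 and 1371 TPM in replicates 1, 2 and 3. The antiviral genes Ifit2, with 73.1, 648 and 210 TPM, and Ifit3, with 168, 642 and 187 TPM, are among the highest of that list. Bst2, which tethers budding virus particles, had 731, 905 and 107 TPM, and Usp18, a brake on interferon signalling and the lowest of the list, had 27.8, 64.2 and 10.2 TPM. Of 25 known NF-kB target genes of macrophages, 23 were high enough to be scaled and 15 of those were highest in replicate 2, with a median log2 ratio of 1.06. For both lists the share of all scaled genes highest in that library is 32.3%. The genes with the highest means in that target list did not follow: Ccl2, a monocyte chemokine, had 731, 66.0 and 39.9 TPM, and Ccl3, another chemokine, had 310, 171 and 208 TPM. Ccl4, a close relative of Ccl3, gave 320, 169 and 68.0 TPM. These 3 chemokine genes were highest in replicate 1. At the other end Csf2, the gene of the growth factor GM-CSF, was at 0.00, 0.09 and 0.05 TPM. The part of an interferon response in the difference of replicate 2 was not tested.

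The genes whose profile over the 3 libraries lay nearest to the median profile of the 10 were Slc45a4, Irf2bp2, Zfp467, H2-D1 and Pde1b, at Euclidean distances of 0.033 to 0.036 on the centred log2 scale. Candidates were 7124 genes of at least 10 mean TPM outside the set, of which 1259 lay within a distance of 0.5. With 3 libraries a profile has few degrees of freedom, so many genes share it. H2-D1, a class I histocompatibility gene, had 2606, 4521 and 2062 TPM. Irf2bp2, which encodes a binding partner of the interferon regulatory factor IRF2, had 33.3, 57.6 and 27.3 TPM.

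Several of the 10 genes carry the NF-kB binding motif next to their start sites. The kB consensus of 10 bases, searched on both strands, was found in the promoters of 5 of the 7 genes with an entry in the RefSeq promoter table (Rel, Nfkbia, Nfkbie, Nfkb2 and Bcl3). The same search hit 5.14% of all 27025 genes in that table. A promoter here is the run from 250 bases before to 50 after the start, on build GRCm38.p6. Rela and Nfkbib had no match, and Relb, Nfkb1 and Nfkbiz have no entry. The stretches before the starts of the highest inhibitor, another inhibitor and a subunit are shown because they hold these matches, together with 30 bases at Nfkb2. Capitals mark the matched bases, overlapping matches being joined. They read, 5′ to 3′ along the gene's strand, as follows.
Nfkbia, chr12:55492648-55492767, minus strand: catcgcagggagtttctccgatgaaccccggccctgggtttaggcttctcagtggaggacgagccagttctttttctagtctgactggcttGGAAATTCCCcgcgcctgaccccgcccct
Nfkbie, chr17:45555580-45555699, plus strand: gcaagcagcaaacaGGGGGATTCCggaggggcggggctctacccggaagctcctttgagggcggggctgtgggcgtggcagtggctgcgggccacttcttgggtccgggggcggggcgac
Rel, chr11:23770971-23771089, minus strand: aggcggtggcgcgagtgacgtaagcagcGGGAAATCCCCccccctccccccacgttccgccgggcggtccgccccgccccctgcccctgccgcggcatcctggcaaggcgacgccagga
Nfkb2, chr19:46304693-46304722, plus strand: gtcacGGGAATTCCCCccctcggggggccg
The match of Nfkbia began 29 bases before the start and that of Nfkbie 106 bases before it. Rel had overlapping matches at 92 and 91 bases before its start. The Nfkb2 stretch lies inside an annotated exon of a longer transcript of the same gene, with matches 39 and 38 bases before the first of its 3 listed starts. A match is a stretch of letters, and no binding was measured here. Genes with a match had mean levels from 7.03 TPM, for Nfkbie, to 50.7 TPM, for Nfkbia.

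Rela was the gene of the set whose leading transcript differed between libraries by TPM in the RSEM-format table. Its gene model lies on chromosome 19 from 5637483 to 5648130, plus strand (mm10), where no other annotated gene overlaps it, and has 7 transcripts. Rela-201, the main protein-coding transcript of 2716 bases and 11 exons, stood at 31.1, 45.2 and 23.0 TPM in replicates 1, 2 and 3. Like the other genes it was thus highest in replicate 2. Rela-203, of 786 bases and annotated as retaining an intron, stood at 8.70, 7.93 and 83.4 TPM. Rela-207, of 728 bases and annotated as a processed transcript without a coding sequence, stood at 0.23, 0.00 and 80.9 TPM. Both short transcripts were high in replicate 3 alone. Together they made up 22.2%, 14.9% and 86.2% of the gene's TPM.

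These shares are of TPM, in which counts are divided by transcript length, and the shares of counts were smaller. The short pair took 5.75%, 3.63% and 57.6% of the gene's counts. The counts of Rela-201 were 1412, 2188 and 2225, or 50.5, 73.5 and 41.6 CPM. The gene's effective length, by which counts are divided to give TPM, was 2026, 2169 and 765 bases. After TMM scaling the gene's count in replicate 3 was 2.22 times that in replicate 1, while its TPM was 4.73 times as high. Without the short pair the gene stood at 31.3, 45.2 and 26.3 TPM.

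The second quantification gave the same picture. In the deposited kallisto-format table the short pair took 31.8%, 26.2% and 87.2% of Rela's TPM. Rela-201 stood there at 20.2, 29.3 and 11.4 TPM. A further transcript, Rela-206, annotated as a target of nonsense-mediated decay, was at 1.504, 1.62 and 11.7 TPM in that table and at 0.18, 0.00 and 2.53 TPM in the other. Both tables therefore put the excess of replicate 3 outside the main coding transcript.

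**Figure D3:**
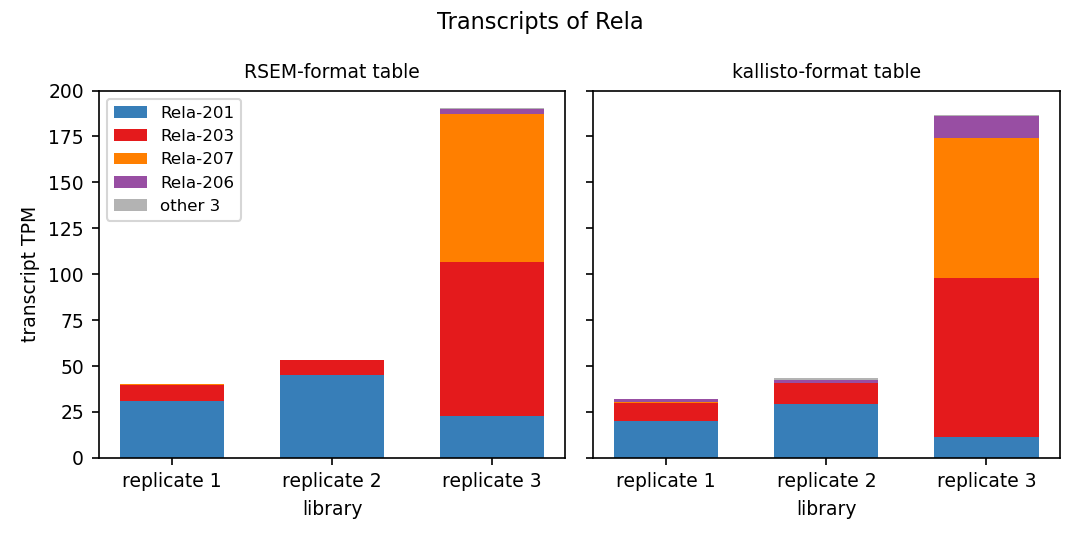
TPM of the transcripts of Rela, stacked for each library, from the RSEM-format (left) and the kallisto-format table (right). The segments of Rela-203 and Rela-207 reach 83.4 and 80.9 TPM in replicate 3 on the left, while Rela-201 is smallest there.

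The short transcripts cover different parts of the gene. Rela-207 opens with a first exon of 205 bases that lies outside Rela-201. It skips exon 2 of Rela-201 and then shares exons 3 to 6, ending 2 bases short. None of its bases is unique to it among the annotated Rela transcripts. Rela-203 opens with 35 bases of the intron before exon 7, which it shares with the exons that follow up to the first 277 bases of exon 11. The exon of 205 bases with its junction, and the 35 intronic bases, are the sequence that Rela-201 lacks. The junctions and the intronic bases are shown because reads across them can tell Rela-207 and Rela-203 from Rela-201. Rela-206 has the same exons 2 and 3 as Rela-201, so the Rela-201 junction does not separate it from Rela-206. For the junctions, lower case is the upstream exon and capitals mark the shared start of exon 3, and for the start of Rela-203 capitals mark the intronic bases.
Rela-201 junction of exons 2 and 3: tcatctttccctcagAGCCAGCCCAGGCTT
Rela-207 junction of its exons 1 and 2: tggcttcctttccgtAGCCAGCCCAGGCTT
Rela-203 first bases: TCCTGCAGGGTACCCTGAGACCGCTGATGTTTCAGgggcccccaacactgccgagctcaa
The deposited values are estimates of how reads divide between these transcripts, and the reads themselves were not examined.

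**Figure D4:**
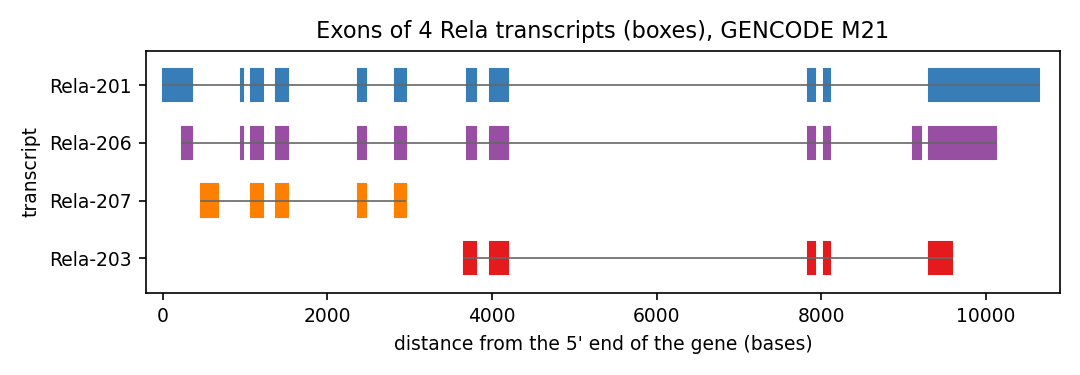
Exons of 4 Rela transcripts drawn to scale as distance in bases from the 5′ end of the gene. Rela-207 covers exons 3 to 6 and Rela-203 exons 7 to 11 of Rela-201, each with a first exon that differs from it.

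Some features of the libraries moved with this result and others did not. It was the deepest library. The median over detected genes of the kallisto-format TPM over the RSEM-format TPM was 0.960 there, against 0.754 and 0.760 in replicates 1 and 2. Transcripts annotated as processed without a coding sequence took 3.95% of all TPM, against 2.35% and 2.63%. Those with a retained intron took 2.73%, 3.99% and 4.05% in replicates 1, 2 and 3, which did not set replicate 3 apart from replicate 2. The median protein-coding share over detected protein-coding genes did not follow either, at 97.4%, 96.0% and 97.4%. A switch as large as that of Rela was rare: the coding share was under 25% in replicate 3 and over 75% in both others for 10 of 9875 genes, Rela among them, a rule chosen after the values of Rela were seen. The mirror pattern was found for 1 gene in replicate 1 and for 0 in replicate 2. The part of depth or of quantification in the switch of Rela was not tested.

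Protein-coding transcripts dominated the other genes. Rela was the 1 gene of 10 whose coding share was under 50% in any library, at 77.4%, 85.1% and 12.4%. That 1 of 10 is near the 11.4% of detected protein-coding genes with such a library. For Rel, which has a single transcript, and for Nfkbib the share was 100% in every library. Nfkb2, Nfkbia, Nfkbie, Nfkbiz and Bcl3 all stayed above 93% in the RSEM-format table. In the kallisto-format table Bcl3 was lower, at 100%, 77.7% and 87.2%. Relb was lower in replicate 3, with 94.7%, 91.1% and 64.5%, and the kallisto-format table gave 90.6%, 89.1% and 56.7%. Relb-210, a target of nonsense-mediated decay by annotation, held 2.22 of the gene's 7.84 TPM in replicate 3 of the RSEM-format table. Nfkb1 went the other way in the RSEM-format table, with 75.9%, 76.6% and 91.8%. The kallisto-format table did not show that order, giving 84.7%, 80.4% and 74.2%.

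When only protein-coding transcripts were summed, Rela joined the other genes. All 10 were then highest in replicate 2, in the RSEM-format and in the kallisto-format table, as were 39.1% of detected protein-coding genes in the former. This sum was added after the Rela transcripts had been seen.

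**Figure D5:**
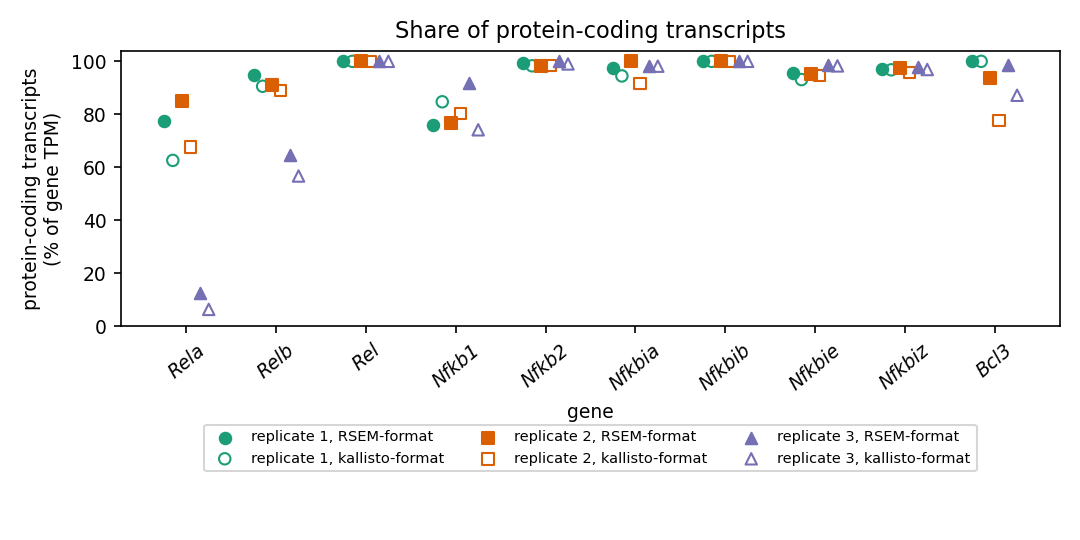
Share of each gene's TPM in protein-coding transcripts, in percent, for each library, with filled symbols for the RSEM-format and open symbols for the kallisto-format table. Rela in replicate 3 lies at 12.4% and 6.37%, and Relb in replicate 3 at 64.5% and 56.7%.

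One transcript led in each library for most of the set. Of the 9 genes with several transcripts, 8 had the same dominant transcript in all 3 libraries of the RSEM-format table, against 76.8% of all detected genes with several transcripts. Rela was the exception, led by Rela-201 in replicates 1 and 2 and by Rela-203 in replicate 3. By counts in the same table Rela-201 led in all 3 libraries, with 39.0% of the gene's counts in replicate 3 against 30.9% for Rela-203. By counts in the kallisto-format table Rela-203 led in replicate 3, with 2144 against 1232 for Rela-201. The leading Nfkb2 transcript held 66.0%, 59.8% and 49.9% of its gene, and the 3 transcripts of Nfkb2 that share the full coding sequence of p100 together held 93.1%, 89.2% and 80.5%. Relb-202 led with 92.3%, 81.5% and 55.5%, but in replicate 1 of the kallisto-format table Relb-203 took its place at 7.38 TPM. The tables therefore differ in which Relb transcript leads in that library.

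Nfkb1 was divided among several transcripts. Its leading transcript, the same in all 3 libraries, held 39.9%, 34.6% and 48.6% of the TPM. It shares its coding sequence with 1 other transcript, and this pair held 50.6%, 55.0% and 78.1%. In the kallisto-format table the pair was steadier, at 65.4%, 66.6% and 67.3%. A pair of transcript models with an open 5′ end held 44.8%, 35.02% and 13.7%, and 22.8%, 13.8% and 6.89% in the kallisto-format table. The higher share of the full coding sequence in replicate 3 was thus seen in 1 table and not in the other.

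None of the 10 genes differed over 2-fold in gene TPM between the quantifications in any library. Of detected genes 4.42% did so in at least 1 library, and 0 of 10 is near that share. Nfkb1 was the furthest apart, at 52.6, 64.0 and 37.1 TPM in the RSEM-format table and 34.2, 42.5 and 36.5 TPM in the other. Its ratio in replicate 1, 0.649, was below the library's median of 0.754.

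The balance of inhibitors and subunits was read from summed levels, which count transcripts and not protein. The 5 subunit genes summed to 137, 197 and 260 TPM, the 3 cytoplasmic inhibitors to 81.5, 123 and 53.4 TPM, and the nuclear pair to 12.0, 35.2 and 18.5 TPM. The ratio of inhibitors to subunits was 0.593, 0.622 and 0.206 (mean 0.474 ± 0.233 SD, n = 3). Replicate 3 was low, and Rela made up 73.4% of its subunit sum against 29.3% and 27.0% in replicates 1 and 2. Leaving Rela out brought the libraries closer together, at 0.838, 0.852 and 0.772 (mean 0.821 ± 0.0427 SD, n = 3). The same ratio in the kallisto-format table was 0.921, 0.919 and 0.754 in replicates 1, 2 and 3, so replicate 3 stayed lowest in both. With protein-coding transcripts alone and Rela kept, the ratio was 0.696, 0.714 and 0.609 in the RSEM-format table. The kallisto-format table gave 0.732, 0.731 and 0.758, with replicate 3 highest. On coding transcripts Rela made up 27.1%, 26.4% and 27.2% of the subunit sum, although the kallisto-format table gave 24.96%, 24.6% and 18.03%.

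The ratio of the non-canonical pair, Nfkb2 and Relb, to the canonical pair, Nfkb1 and Rela, was 0.403, 0.571 and 0.102 (mean 0.359 ± 0.238 SD, n = 3). On protein-coding transcripts it was 0.516, 0.678 and 0.353. Canonical transcripts therefore outnumbered non-canonical ones in every library, and replicate 2 had the highest ratio on both measures. Nfkbia made up 62.1%, 64.0% and 43.4% of the cytoplasmic inhibitor sum.

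The machinery upstream of these genes was expressed. All 17 genes of the canonical activation list (the IKK complex, its activators and the ubiquitin ligase of IkB) reached 1 TPM in each library, and their median was 36.01 TPM. Of these, 6 were highest in replicate 2, a share near the 32.3% of all scaled genes, and the median log2 ratio there was 0.04. Over all libraries 3 of the 17 were over 2-fold apart, against 36.9% of all scaled genes. Ube2v1 and Ube2n, which together build the ubiquitin chains of this route, had means of 137 ± 9.62 and 130 ± 39.3 TPM (SD, n = 3). Tab2, an adaptor of the kinase TAK1, followed at 73.7 ± 26.8 TPM, and its relative Tab3 was lowest at 4.08 ± 0.61 TPM (SD, n = 3).

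The non-canonical list had a lower median. All 9 genes reached 1 TPM in each library, their median was 11.2 TPM, and 7 were highest in replicate 2 (32.3% of all scaled genes), where the median log2 ratio was 0.56. Over all libraries 5 of the 9 were over 2-fold apart (36.9% of all scaled genes). The TNF receptor gene Tnfrsf1b had 103.7, 224 and 142 TPM. The lymphotoxin receptor gene Ltbr had 55.0, 51.3 and 38.0 TPM. Tnfrsf11a, the gene of the receptor RANK, had 62.0, 24.1 and 26.2 TPM. Cd40, the co-stimulatory receptor gene and the lowest of the list, had 5.92, 12.5 and 4.58 TPM. Tnfrsf1b and Cd40 were thus highest in replicate 2 and the other 2 receptors in replicate 1.

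Among 8 negative regulators outside the IkB family, 7 reached 1 TPM in each library and 2 of the 7 that could be scaled were highest in replicate 2, a share near the 32.3% of all scaled genes. Tnip1, a partner of the deubiquitinase A20, had 35.9, 59.7 and 76.5 TPM. Otulin, which removes linear ubiquitin chains, had 33.8, 41.3 and 36.5 TPM. Pdlim2, which targets nuclear p65 for destruction, had 31.3, 14.8 and 17.9 TPM. Trib3 was lowest at 1.16, 0.37 and 0.20 TPM. The highest library thus varied from gene to gene in this group.

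The cells carried the markers of their label. All 10 macrophage markers reached 1 TPM in each library, their median was 391 TPM, and the list was led by Lyz2, the lysozyme gene, at 15616, 29523 and 11086 TPM. Of 8 neutrophil markers 4 reached 1 TPM in each library, and their list summed to 172, 36.2 and 337 TPM, while Ly6g was at 0 in each. That sum was lowest in replicate 2, where the NF-kB and IkB genes were highest. Its part in the result was not tested. Of 6 T and NK cell, 5 dendritic cell and 5 stromal markers none reached 1 TPM in every library, and of 5 B cell markers Cd79b alone did. Among 4 monocyte markers 3 did.

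Some of the genes share sequence with others on the opposite strand, and whether counting used strand is not given in the sources used here. Nfkbib overlaps Sirt2, which had 2289, 4267 and 9213 counts against 427, 673 and 1040 for Nfkbib. Nfkb2 overlaps Psd and the long non-coding RNA AC114539.1, which had 108, 473 and 438 counts. Counts of Nfkb2 were the only ones of the set that were not whole numbers, at 1319, 2319 and 1765 after rounding. The antisense genes at Bcl3 had at most 7 counts.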

How the data were processed

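Each library came with a gene table and 2 transcript tables. Per the file headers, gene tables and one set of transcript tables follow the RSEM format, and the authors estimated their expected counts and TPM by dividing reads among transcripts. The other transcript table is in kallisto format, with estimated counts and TPM deposited per transcript. The deposited tables also give each transcript's percent of its gene, but shares were recomputed here from TPM. Build mm10 and annotation GENCODE M21 are given in the deposited file lists. For the aligner, program versions and strand setting, nothing is given in the sources.

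Expected counts were rounded to whole numbers, filtered with filterByExpr and scaled by TMM in edgeR 4.0.16 (R 4.3.3) with a prior count of 0.5. Scaling was tested on simulated data. Log2 ratios set each library against the geometric mean of the others. Detected means at least 1 TPM in every library. Totals ranged from 27946070 to 53447437 counts. Tables and figures were made with Python 3.11.15, pandas 2.3.3 and matplotlib 3.10.9. The promoter table is RefSeq's for build GRCm38.p6.

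The libraries form 1 group, so no contrast was tested. The 10 genes, the lists and the alternatives were chosen with earlier results of these data known. Named were every member, the 3 highest genes and the lowest of each pathway list, leading transcripts and those of at least 10% of a gene, and the 5 genes of nearest profile. Some genes that this rule names are not reported here. Alternatives were DESeq2 1.42.0 size factors, other filters, prior counts, pseudocounts and thresholds, posterior means, the kallisto-format values, coding transcripts and leaving out each library.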

Additional observations from a re-analysis of the deposited data

How the results depend on the processing

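Of the values recomputed for the summary results, 54 moved by no more than the limit set for them (1 SD between libraries, or 1.5 times for a count) and 4 moved further. For single genes these numbers were 94 and 6. That limit is wide where libraries differ: the mean of Rela was 94.6 TPM, 46.7 TPM without replicate 3 and 33.3 TPM on protein-coding transcripts, all within 1 SD. Likewise the ratio of inhibitors to subunits was 0.673 on protein-coding transcripts, and that of the non-canonical to the canonical pair was 0.252 without replicate 2. The count of genes over 2-fold apart between libraries, 6, ranged from 2 to 4 when 1 library was left out (2 without replicate 2, 3 without replicate 3). Fewer libraries give a narrower range by construction. With a limit of 1.5-fold in place of 2-fold, 2 genes in place of 0 differed between the quantifications. The ratio of inhibitors to subunits was 0.821 without Rela, against 0.474, an alternative chosen after seeing the data. The mean of Nfkb1 was 37.7 TPM and that of Nfkbib 21.6 TPM in the kallisto-format table. By posterior mean Nfkbiz was at 8.62 TPM, above Nfkbie at 6.68 TPM. The mean coding shares of Nfkbia, Nfkbiz and Bcl3 were 94.8%, 96.5% and 88.3% in the kallisto-format table. The cause was not tested. No paired analysis was possible because all libraries belong to 1 group. Nfkbiz, the least abundant gene by mean TPM of the main values, rests on 198 to 595 counts.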

Other observations

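Among other genes of the ankyrin IkB type, Nfkbil1 was the highest, with a mean of 10.4 TPM. Nfkbid, which encodes the nuclear protein IkB-NS, stood at 4.87, 6.95 and 2.25 TPM in replicates 1, 2 and 3. Nfkbil1 stood at 13.1, 12.5 and 5.70 TPM. Ankrd42 was below 1 TPM in every library. Nfkbid was thus highest in replicate 2, like Nfkbiz, and Nfkbil1 was about as high in replicate 1 as in replicate 2.

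All 10 nuclear co-factors of NF-kB on a list reached 1 TPM in each library, and their median was 35.5 TPM. Of these, 2 were highest in replicate 2, against 32.3% of all scaled genes, and their median log2 ratio there was -0.22. Ncor1, a co-repressor, had 83.1, 99.2 and 220 TPM. It was highest in replicate 3, the library in which Rela had its excess of short transcripts. The nuclear import gene Kpna4 had 70.7, 50.1 and 44.3 TPM and was highest in replicate 1.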
